A study of Mus musculus with 29 samples.

Results

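Mesothelial markers were followed in the peritoneum of mice that carried the gastric cancer line YTN16 in the abdominal cavity. The markers were the genes Msln, Upk3b, Upk1b, Wt1, Lrrn4 and Muc16, taken by symbol from the table of read counts. Of these 6 listed genes, 5 had a row among the 24421 genes of the table, and Muc16 was not analysed here. The 5 genes were chosen as markers of a cell type, with earlier results of these data known. All 5 passed the filter on low counts in every comparison.

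Bulk RNA-seq libraries of 29 female C57BL/6J mice, 5 to 6 weeks old when the experiment was set up, were compared, with 1 library per mouse, and every mouse had received YTN16 cells by intraperitoneal (IP) injection. At day 21 there were 5 untreated mice and 5 mice given dual ICI, that is antibodies against both PD1 and CTLA4. At day 35 there were 5 untreated mice, 5 given anti-PD1 alone, 4 given anti-CTLA4 alone and 5 given dual ICI. The untreated mice received PBS, a saline buffer, in place of antibody. The 5 dual ICI mice at day 35 were divided into 2 dual ICI-uncured mice (replicates 1 and 5) and 3 dual ICI-cured mice (replicates 2, 3 and 4) by the mouse numbers in the text of the study, since the labels give only the replicate number. The labels call every sample a tumor, whereas the methods of the study describe stripped peritoneum collected whether or not it bore nodules, so a cured mouse contributed peritoneum without visible tumor. YTN16 is a transplanted mouse line, and each library mixes host tissue with whatever cancer cells were present.

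The mesothelium is the flat sheet of cells that lines the peritoneal cavity and covers its organs. It lies at the surface where cancer cells in the cavity first attach, secretes a lubricating film, and can lose its sheet-like form and take on features of fibroblasts. Msln encodes mesothelin, a surface glycoprotein anchored by a lipid tail, which binds the mucin encoded by Muc16 and is also made by many carcinomas. Upk3b and Upk1b encode uroplakins, membrane proteins best known from the urothelium of the bladder, and Upk1b belongs to the tetraspanins. Lrrn4 encodes a neuronal leucine-rich repeat protein of the membrane. Wt1 encodes a zinc finger transcription factor that is active in the developing and adult mesothelium. In bulk tissue, fewer mesothelial cells and less RNA per mesothelial cell cannot be told apart.

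On the mouse build GRCm38, with the GENCODE vM21 annotation, all 5 are protein-coding genes that overlap no other annotated gene. Msln lies on chromosome 17 at 25748613-25754378 on the minus strand, Upk3b on chromosome 5 at 136038496-136046487 on the plus strand and Upk1b on chromosome 16 at 38773184-38800328 on the minus strand. Wt1 and Lrrn4 are both on chromosome 2, Wt1 at 105126529-105173616 on the plus strand and Lrrn4 at 132868305-132880891 on the minus strand. The RefSeq promoter table of build GRCm38.p6 held entries for Upk3b and Lrrn4, which matched 2 of the 5 genes, and Msln, Upk1b and Wt1 had none there. The 250 bases before each start site are shown because Upk3b and Lrrn4 were the markers with an entry, and their differences between cured and untreated mice did not pass the test. Each window is written 5′ to 3′ along its gene, with the match to the TEAD core GGAATG, or its reverse complement CATTCC, in capitals. The Upk3b window is chr5:136038246-136038495 (plus strand) and the Lrrn4 window is chr2:132880863-132881112 (minus strand). The RefSeq start site of Lrrn4 lies inside the GENCODE gene, so the last bases of its window fall within the annotated gene.
Upk3b: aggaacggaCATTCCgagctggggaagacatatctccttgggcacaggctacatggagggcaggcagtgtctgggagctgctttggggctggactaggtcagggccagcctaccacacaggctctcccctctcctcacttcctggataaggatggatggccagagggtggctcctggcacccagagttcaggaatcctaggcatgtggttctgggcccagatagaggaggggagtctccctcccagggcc
Lrrn4: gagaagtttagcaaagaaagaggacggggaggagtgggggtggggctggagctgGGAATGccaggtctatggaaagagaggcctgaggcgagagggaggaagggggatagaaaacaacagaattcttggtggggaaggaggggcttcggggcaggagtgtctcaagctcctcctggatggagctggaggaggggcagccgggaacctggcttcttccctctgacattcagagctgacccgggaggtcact

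For context, 5 letter strings were searched on both strands of the 300-base window that runs from 250 bases before to 50 bases after the start site. GGAATG was found once in each promoter, at -241 to -236 on the opposite strand in Upk3b and at -196 to -191 on the gene's own strand in Lrrn4, counted from the start site, and 14.7% of the 32851 promoters in the table held it. The WT1 and EGR core GCGTGGG (5.04% of promoters), the GATA core AGATAA (11.2%), the E box CACCTG (20.2%) and CCAAT (37.4%) had no match in either window. A match describes letters and not a site of binding.

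Library totals lay between 25989217 and 31219650 counts, so the depth was alike in every mouse. Values are given as CPM, read counts relative to the depth of the library, on library sizes scaled by TMM, a method that balances libraries of different composition. All 5 markers were detected in all 29 libraries, with the lowest count 39, for Wt1 in dual ICI-cured replicate 4. The 12 listed skeletal muscle genes took 16.2% to 18% of all counts in the 3 cured libraries and 2.52% to 16.1% in the other 26. Anti-PD1 replicate 5 and untreated replicate 2 at day 35 were the muscle-rich libraries of their groups, with 16.1% and 15.2%. Epcam, a surface protein of epithelium and of the cancer line, was at 4.21 CPM in anti-PD1 replicate 5 against 113 to 525.9 in all other libraries at day 35 outside the cured group, where it lay between 0.341 and 5.41. The text of the study describes a cured animal in the anti-PD1 group without naming its library, so anti-PD1 replicate 5 was kept in its labelled group and results that rest on it are also given without it. Day 21 and day 35 libraries carry separate series of library names, so day and sequencing submission cannot be told apart.

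**Figure D1:**
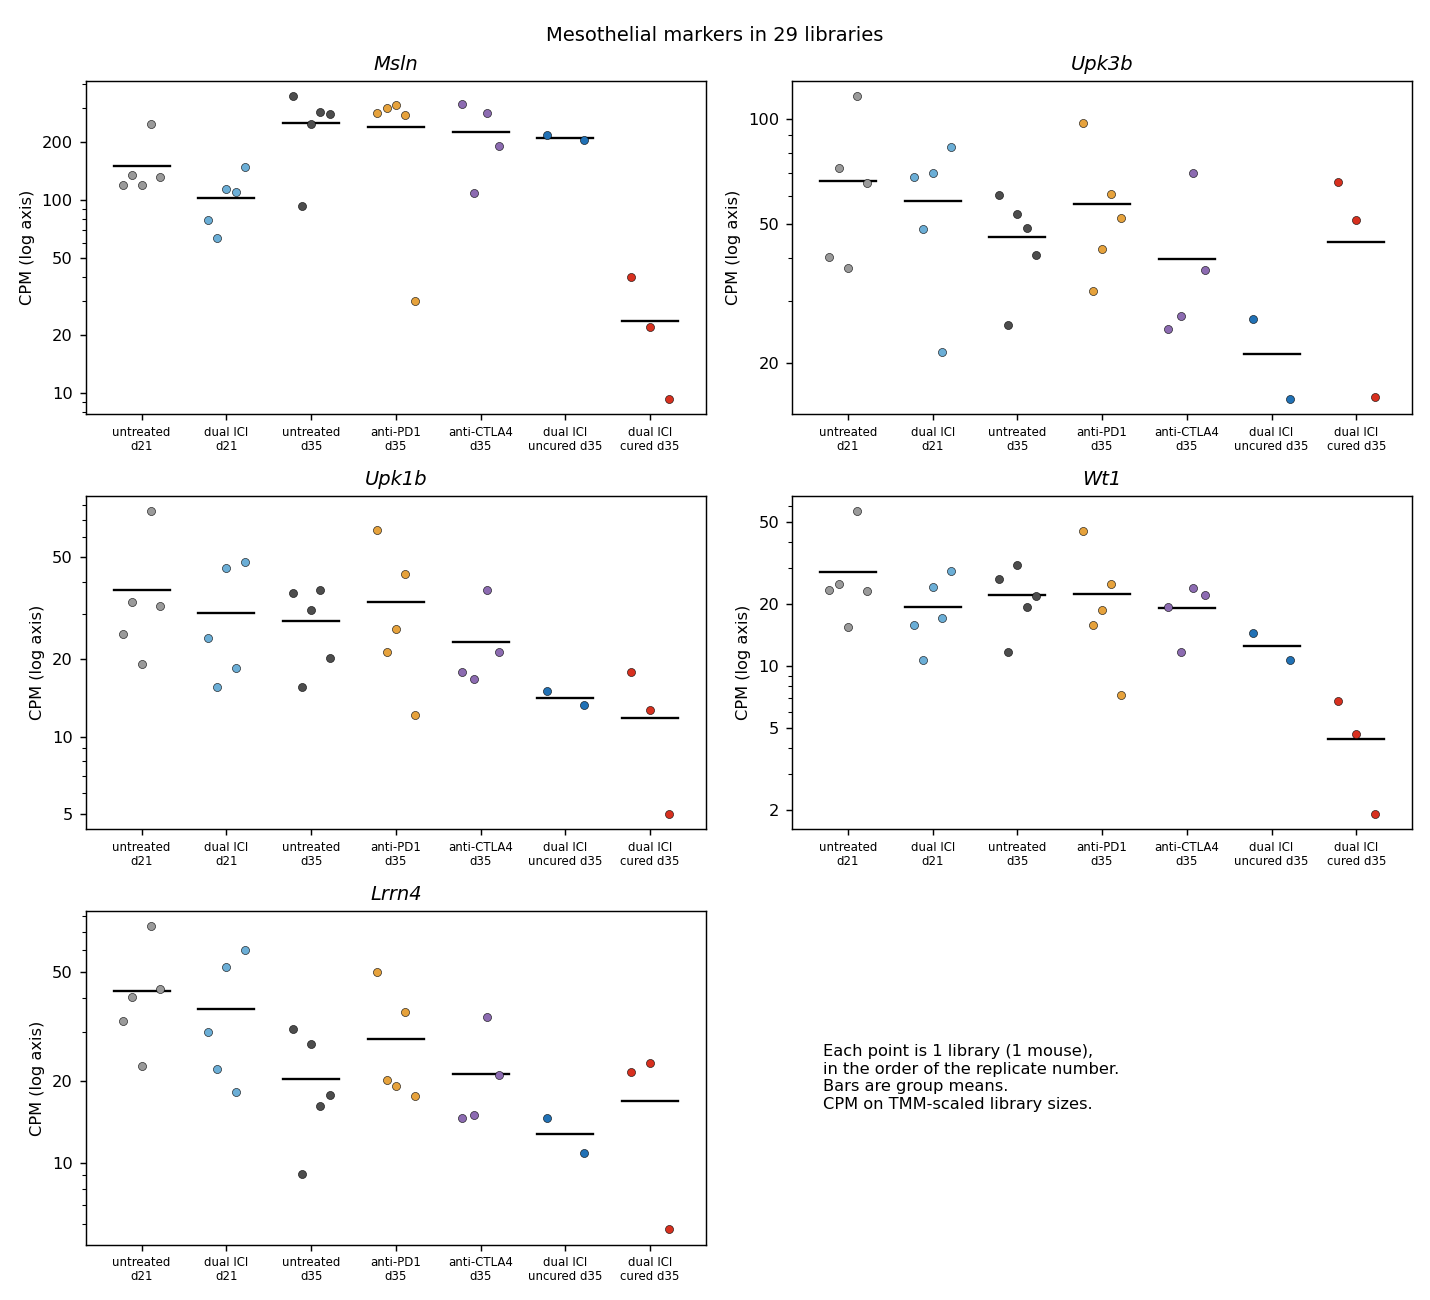
Levels of the 5 mesothelial markers in 29 libraries, in CPM on a log axis, by group, with 1 point per mouse and a bar at the group mean. Wt1 was lower in the 3 dual ICI-cured libraries than in all others, and Msln of the cured mice lay between 9.32 and 39.7 CPM, a range that also held anti-PD1 replicate 5 with 29.9 CPM. Upk3b and Lrrn4 of the cured mice overlapped the other groups, except for Lrrn4 in cured replicate 4, the lowest library with 5.71 CPM.

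Per length of exon, Msln was the most abundant of the 5 markers and Wt1 the least. In untreated mice at day 35, Msln reached 81.6 ± 30.8 RPKM (CPM per kilobase of exon, SD, n = 5), Upk1b 13.5 ± 4.67, Upk3b 12.9 ± 3.77, Lrrn4 5.44 ± 2.36 and Wt1 3.56 ± 1.18. In cured mice the order was different, with Upk3b at 12.6 ± 7.29 RPKM (n = 3), Msln at 7.74 ± 4.99, Upk1b at 5.66 ± 3.1, Lrrn4 at 4.52 ± 2.59 and Wt1 at 0.717 ± 0.393. Upk3b thus stood above Msln in cured mice only by the group means, since their ranges of 4.5 to 18.7 and 3.04 to 13 RPKM overlapped.

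Msln, the surface glycoprotein, was about an order of magnitude lower in cured mice than in any other group at day 35. Its level was 345, 92.9, 249, 285 and 278 CPM in untreated mice (replicates 1 to 5) and 39.7, 22.1 and 9.32 CPM in cured mice (replicates 2, 3 and 4). In the uncured mice it was 217 and 204 CPM (replicates 1 and 5). The cured and the untreated values did not overlap, and the untreated replicate closest to the cured mice was the muscle-rich replicate 2. The anti-PD1 mice had 282, 301, 309, 275 and 29.9 CPM, and the anti-CTLA4 mice had 313, 109, 283 and 191 CPM. Replicates 1 to 4 of anti-PD1 were close together, and replicate 5 fell within the range of the cured mice. At day 21 the untreated mice had 119.7, 135, 119.9, 247 and 132 CPM and the dual ICI mice 78.9, 63.9, 113, 110.3 and 148 CPM. Ordered by group mean, Msln ran from untreated day 35 through anti-PD1, anti-CTLA4, uncured, untreated day 21 and dual ICI day 21 to cured. Only the last step, from dual ICI day 21 to cured, lay between groups whose ranges were apart. The share of all genes apart in that step was not computed.

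Relative to untreated mice, Msln in cured mice fell by 3.39 on the log2 scale (SE 0.55, 10.5-fold lower, adjusted p = 0.00135, edgeR quasi-likelihood test with Benjamini-Hochberg adjustment over all genes). It was 3.14 higher in uncured than in cured mice (SE 0.43, adjusted p = 0.000215, edgeR). Relative to cured mice it was also higher under anti-CTLA4, by 3.24 (SE 0.55, adjusted p = 0.00143, edgeR), and under anti-PD1, by 3.34 (SE 0.82, adjusted p = 0.0403, edgeR). The last call turned on single libraries: without anti-PD1 replicate 5 the difference was 3.63 with an adjusted p of 7.72e-05, and leaving out any other library of the 2 groups raised the adjusted p to between 0.0853 and 0.145 (edgeR). Against untreated mice Msln passed under all 15 other settings and omissions, with adjusted p of at most 0.0101.

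Upk3b, the uroplakin taken here as the reference for the others, had about the same level in cured and untreated mice. It was 60.3, 25.6, 53.3, 48.5 and 40.6 CPM in untreated mice at day 35 and 66 and 51.2 CPM in cured replicates 2 and 3, with 15.9 CPM in cured replicate 4. It was 26.6 and 15.7 CPM in the uncured mice. Cured replicate 4 was the lowest library of its group for all 5 markers, and the other 2 cured libraries stood at or above the untreated median of 48.5 CPM. The anti-PD1 mice had 97.1, 32, 42.3, 60.7 and 52.1 CPM, and the anti-CTLA4 mice 25, 27.2, 69.8 and 36.8 CPM. Anti-PD1 replicate 5, the lowest of its group for Msln, was in the middle of it for Upk3b. At day 21 the untreated mice had 40.2, 72.3, 37.4, 116 and 65.4 CPM and the dual ICI mice 67.9, 48.3, 70 (replicate 3), 21.5 and 82.9 CPM. No step in the order of the 7 group means, from untreated day 21 with 66.3 ± 31.7 CPM (n = 5) down to uncured with 21.2 ± 7.7 (n = 2), lay between groups whose ranges were apart.

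The difference in Upk3b between cured and untreated mice was -0.03 on the log2 scale (SE 0.40, adjusted p = 0.954, edgeR). Without cured replicate 4 it was 0.37 and, on plain library totals without TMM, -0.67, and neither passed the test (adjusted p = 0.343 and 0.239, edgeR). Plain totals moved the median of all genes in this comparison from -0.05 to -0.64, so Upk3b stood next to the median gene under both scalings. Between uncured and cured mice the difference was -1.08 (SE 0.50, adjusted p = 0.0801, edgeR), and without cured replicate 4 it became -1.51 with an adjusted p of 0.000742 (edgeR). Under anti-PD1 and anti-CTLA4 it was 0.36 (SE 0.49, adjusted p = 0.554) and -0.16 (SE 0.50, adjusted p = 0.803) relative to cured mice, and the latter was 0.48 on plain totals (edgeR).

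Upk1b, the tetraspanin uroplakin, lay between these patterns. It was 36.4, 15.6, 31.1, 37.2 and 20.2 CPM in untreated mice at day 35, 15 and 13.3 CPM in uncured mice and 17.8, 12.7 and 4.98 CPM in cured mice. Cured replicate 2 lay within the untreated range and the other 2 cured libraries below it, while both uncured libraries were below the lowest untreated one. The anti-PD1 mice ranged from 12.2 CPM (replicate 5) to 64 CPM (replicate 1), the anti-CTLA4 mice from 16.8 to 37.2 CPM, and the day 21 mice from 15.6 to 48 CPM with dual ICI and from 19.2 to 75.6 CPM untreated. In the order of group means the only neighbours whose ranges were apart were anti-CTLA4 and uncured. The gap lay between 16.8 and 15 CPM, with 4 and 2 libraries, and the share of all genes apart there was not computed. Relative to untreated mice, Upk1b in cured mice fell by 1.24 (SE 0.42, 2.36-fold lower, adjusted p = 0.0354, edgeR). That call was lost when cured replicate 3 or 4 or untreated replicate 1, 3 or 4 was left out, with adjusted p between 0.0635 and 0.0969 (edgeR). Set against cured mice, Upk1b differed by 0.25 in uncured mice (SE 0.40), 1.51 under anti-PD1 (SE 0.61) and 0.99 under anti-CTLA4 (SE 0.44), with adjusted p of 0.596, 0.09 and 0.079 (edgeR). It passed in 5 of 15 other settings and omissions under anti-PD1, 4 of 14 under anti-CTLA4 and 1 of 11 in uncured mice. Among these were anti-PD1 without replicate 5 of that group (1.72, adjusted p = 0.0113) and anti-CTLA4 without cured replicate 2 (1.40, adjusted p = 0.0433). The setting for uncured mice was plain totals (1.04, adjusted p = 0.0362, all edgeR).

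Lrrn4, the leucine-rich repeat protein, followed Upk3b more than Msln. It was 30.8, 9.1, 27.2, 16.2 and 17.7 CPM in untreated mice at day 35, 14.6 and 10.8 CPM in uncured mice and 21.5, 23.1 and 5.71 CPM in cured mice. The first 2 cured libraries were inside the untreated range and the last was below it. The other groups spanned 17.5 to 49.8 CPM (anti-PD1), 14.5 to 34.3 (anti-CTLA4), 18.2 to 59.9 (dual ICI at day 21) and 22.5 to 73.2 (untreated at day 21), and no neighbours in the order of means had ranges apart. The difference between cured and untreated mice was -0.25 (SE 0.47, adjusted p = 0.68, edgeR) and turned to 0.16 without cured replicate 4. Between uncured and cured mice it was -0.41 (SE 0.48, adjusted p = 0.459, edgeR), which became 0.37 on plain totals and -0.85, with an adjusted p of 0.00468, without cured replicate 4 (edgeR).

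Wt1, the transcription factor, was lower in every cured library than in any other library. How many of all genes separated the cured libraries in this way was not counted. It was 26.5, 11.7, 31 (replicate 3), 19.3 and 21.9 CPM in untreated mice at day 35, 14.5 and 10.7 CPM in uncured mice and 6.75, 4.68 and 1.9 CPM in cured mice, which rested on 131, 95 and 39 counts. The anti-PD1 mice had 45.2, 15.8, 18.7, 25.1 and 7.23 CPM, and the anti-CTLA4 mice 19.4, 11.7, 23.9 and 22.1 CPM. Anti-PD1 replicate 5 was the next lowest library after the cured ones. At day 21 the untreated mice had 23.4, 25.2, 15.5, 56.6 and 23.1 CPM and the dual ICI mice 15.9, 10.7, 24.3, 17.1 and 29 CPM. Among the neighbours in the order of group means, only uncured, with 12.6 ± 2.72 CPM (n = 2), and cured, with 4.44 ± 2.43 (n = 3), had ranges apart. In that comparison the ranges were apart for 81.1% of all genes.

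Relative to untreated mice, Wt1 in cured mice fell by 2.31 (SE 0.43, 4.94-fold lower, adjusted p = 0.00258, edgeR). It was higher than in cured mice by 1.49 in uncured mice (SE 0.40, adjusted p = 0.00944), by 2.12 under anti-CTLA4 (SE 0.42, adjusted p = 0.00278) and by 2.35 under anti-PD1 (SE 0.65, adjusted p = 0.0447, all edgeR). Without uncured replicate 1, which left 1 uncured library assumed to vary like the cured ones, the uncured difference was 1.26 with an adjusted p of 0.0626 (edgeR). The anti-PD1 difference was 2.57 with an adjusted p of 0.0013 without anti-PD1 replicate 5, and with any other library left out the adjusted p rose to between 0.0853 and 0.145 (edgeR).

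**Figure D2:**
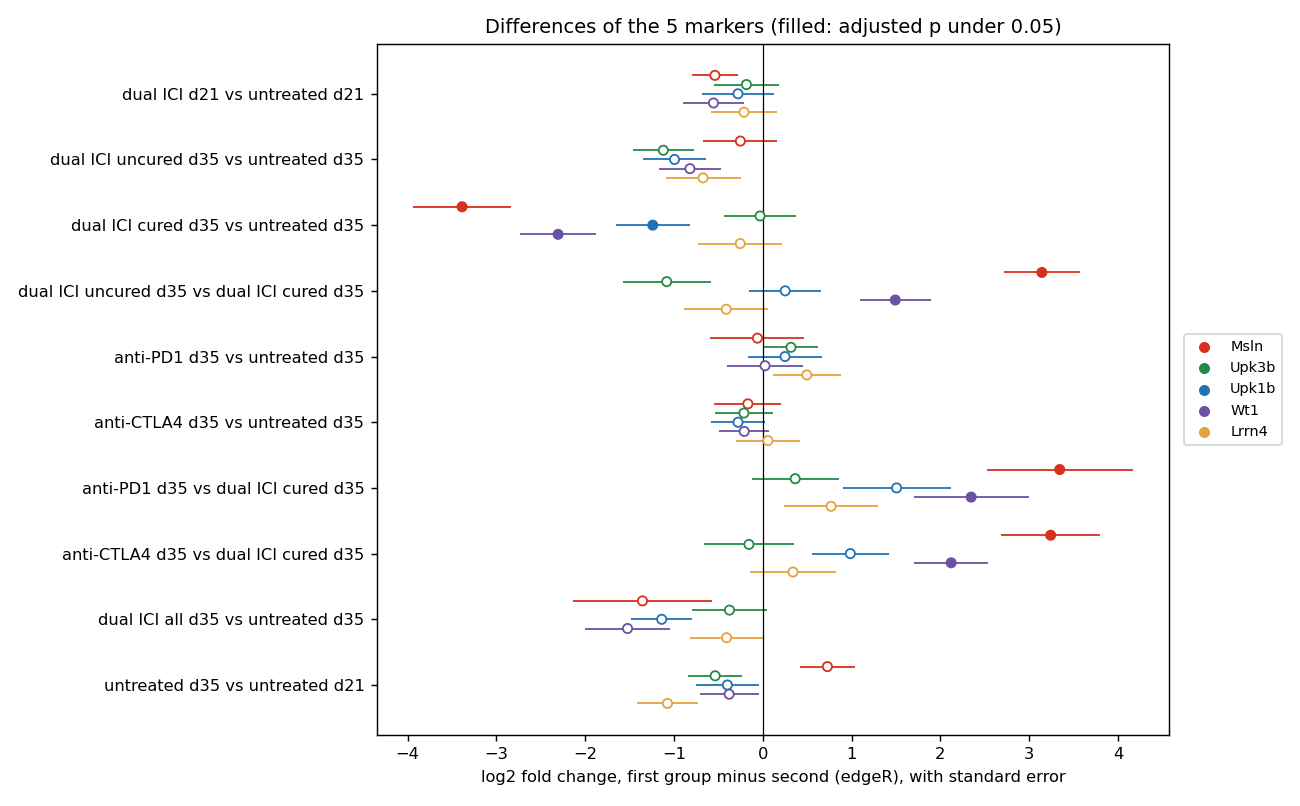
Log2 fold changes of the 5 markers in 10 comparisons, first group minus second, with the edgeR standard error as bars and filled points where the adjusted p was under 0.05. Filled points occurred only in comparisons with cured mice, for Msln and Wt1 in each of them and for Upk1b against untreated mice, where the values were -3.39, -2.31 and -1.24.

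The counts of markers that changed were read against a background in which much of the transcriptome changed. In cured against untreated mice 3 of 5 markers changed, all downward, where 44.7% of the 15816 genes tested changed and 26.7% fell. The median difference of the 5 markers was -1.24, beside -0.05 over all genes, and the ranges were apart for Msln and Wt1, 2 of 5, where this held for 47.3% of genes. In uncured against cured mice 2 of 5 changed, where 70% of 15796 genes did, with the ranges apart for the same 2 markers beside 81.1% of genes. Under anti-CTLA4 against cured it was 2 of 5 beside 62.5% of 15668 genes, with both ranges apart beside 65.7%. Under anti-PD1 against cured it was 2 of 5 beside 18.8% of 15749 genes, with the ranges apart for Wt1 alone beside 19.9%. The comparisons with cured mice share the 3 cured libraries, and those with untreated mice at day 35 share the 5 untreated ones.

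In uncured mice none of the 5 markers changed relative to untreated mice with edgeR, which called 0% of 16156 genes, or with DESeq2, which called 17 genes. At an unadjusted p under 0.05 there were 3 markers and 787 genes (4.87%). The differences were -1.12 for Upk3b (SE 0.34), -0.99 for Upk1b (SE 0.35), -0.82 for Wt1 (SE 0.35), -0.67 for Lrrn4 (SE 0.42) and -0.25 for Msln (SE 0.42), each with an adjusted p of 0.734 or, for Msln, 0.846. Only Upk1b had ranges apart, 1 of 5 beside 17.6% of all genes. With the 5 dual ICI mice of day 35 pooled as the labels have them, 0 of 5 markers and 0% of 15588 genes passed with edgeR (2 markers and 1071 genes, 6.87%, at an unadjusted p under 0.05, and 0 markers and 46 genes with DESeq2). Wt1 differed from untreated mice by -1.52 (SE 0.47) and Upk1b by -1.14 (SE 0.34) there, both with an adjusted p of 0.634 (edgeR).

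Under either antibody alone no marker separated from untreated mice. Anti-PD1 gave 0 of 5 markers and 0% of 15640 genes with edgeR, and none with DESeq2 (0 markers and 205 genes, 1.31%, at an unadjusted p under 0.05 with edgeR). The largest of the 5 differences was 0.50 for Lrrn4 (SE 0.38, adjusted p = 1, edgeR). Anti-CTLA4 likewise gave 0 of 5 markers and 0% of 15781 genes with both tools (0 markers and 128 genes, 0.811%, at an unadjusted p under 0.05 with edgeR), with differences between -0.28 for Upk1b and 0.06 for Lrrn4.

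No marker passed the test for dual ICI against untreated mice at day 21, and the ranges of the 2 groups overlapped for all 5 markers. The lowest dual ICI library was below the untreated range for each marker, and for Msln 4 of the 5 dual ICI mice, at 63.9 to 113 CPM, were below the lowest untreated value of 119.7 CPM. With edgeR 0 of 5 changed, where 0.574% of 15503 genes did, and none reached an unadjusted p under 0.05, as 10.7% of genes did, while DESeq2 called 0 markers and 502 genes. The differences were all negative, from -0.56 for Wt1 (SE 0.35) and -0.54 for Msln (SE 0.26) to -0.18 for Upk3b (SE 0.37), with a median of -0.28 beside 0.02 over all genes, and their adjusted p lay between 0.5 and 0.938 (edgeR). For the effect of dual ICI between the days, the interaction term called 0 of 5 markers and 0% of 16021 genes with edgeR (0 markers and 1648 genes, 10.3%, at an unadjusted p under 0.05, 0 markers and 20 genes with DESeq2). It ranged from -0.97 for Wt1 (SE 0.61) to -0.20 for Upk3b (SE 0.60). The day 35 dual ICI group in it pooled uncured and cured mice, with mean Msln of 210 and 23.7 CPM, so the term for Msln had an SE of 0.85. A difference limited to 1 outcome could thus be missed. By the study's timeline the day 35 mice had also received later antibody doses, so day and dosing cannot be told apart.

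Between day 21 and day 35 in untreated mice the point estimates of the markers diverged. Msln was 0.73 higher at day 35 (SE 0.31, adjusted p = 0.144, edgeR) and the other 4 were lower, from -0.38 for Wt1 (SE 0.33) and -0.40 for Upk1b (SE 0.35) to -0.54 for Upk3b (SE 0.31) and -1.07 for Lrrn4 (SE 0.34, adjusted p = 0.065, edgeR). None of the 5 passed, where 10.8% of 15604 genes did, although Msln and Lrrn4 had an unadjusted p under 0.05, as 30.1% of genes did, and DESeq2 called Lrrn4. Both depended on the muscle-rich untreated replicate 2 of day 35. Without it Msln rose by 0.93 (adjusted p = 0.00925) and Lrrn4 fell by 0.89 (adjusted p = 0.0459, edgeR).

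Ratios of 2 counts within a library do not depend on its scaling, and they set the markers against each other in each mouse. A ratio can move with either of its counts. Msln per Upk3b count was 5.71, 3.63, 4.67, 5.87 and 6.85 in untreated mice at day 35, 8.14 and 13 in uncured mice and 0.602, 0.431 and 0.586 in cured mice. It was 2.91, 9.39, 7.29, 4.53 and 0.574 under anti-PD1, and 12.5, 4, 4.05 and 5.18 under anti-CTLA4. The cured mice therefore had about an order of magnitude less Msln per Upk3b than the other mice of day 35, and anti-PD1 replicate 5 was the single library of the other 26 at or below the highest cured ratio. At day 21 the ratio was 2.98, 1.87, 3.21, 2.13 and 2.02 in untreated mice and 1.16, 1.32, 1.62, 5.14 and 1.78 with dual ICI, and the untreated mice of the 2 days did not overlap.

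Wt1 per Upk3b count was 0.102, 0.0913 and 0.12 in the 3 cured mice and 0.139 to 0.796 in the other 26. The groups did not overlap, and the lowest of the 26 was again anti-PD1 replicate 5. Upk1b per Upk3b was 0.247 to 0.313 in cured mice and 0.234 to 0.867 in the others, of which only anti-PD1 replicate 5 fell at or below the highest cured value. Lrrn4 per Upk3b was 0.326 to 0.452 in cured mice and overlapped 5 of the other 26 libraries. The cured libraries, whose Msln levels ran from 9.32 to 39.7 CPM, thus differed little among themselves in these ratios. Upk1b per Wt1 was 2.62 to 2.71 in cured mice and 0.922 to 1.92 in all other libraries, anti-PD1 replicate 5 included. How often ratios of other gene pairs set the cured libraries apart was not examined.

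**Figure D3:**
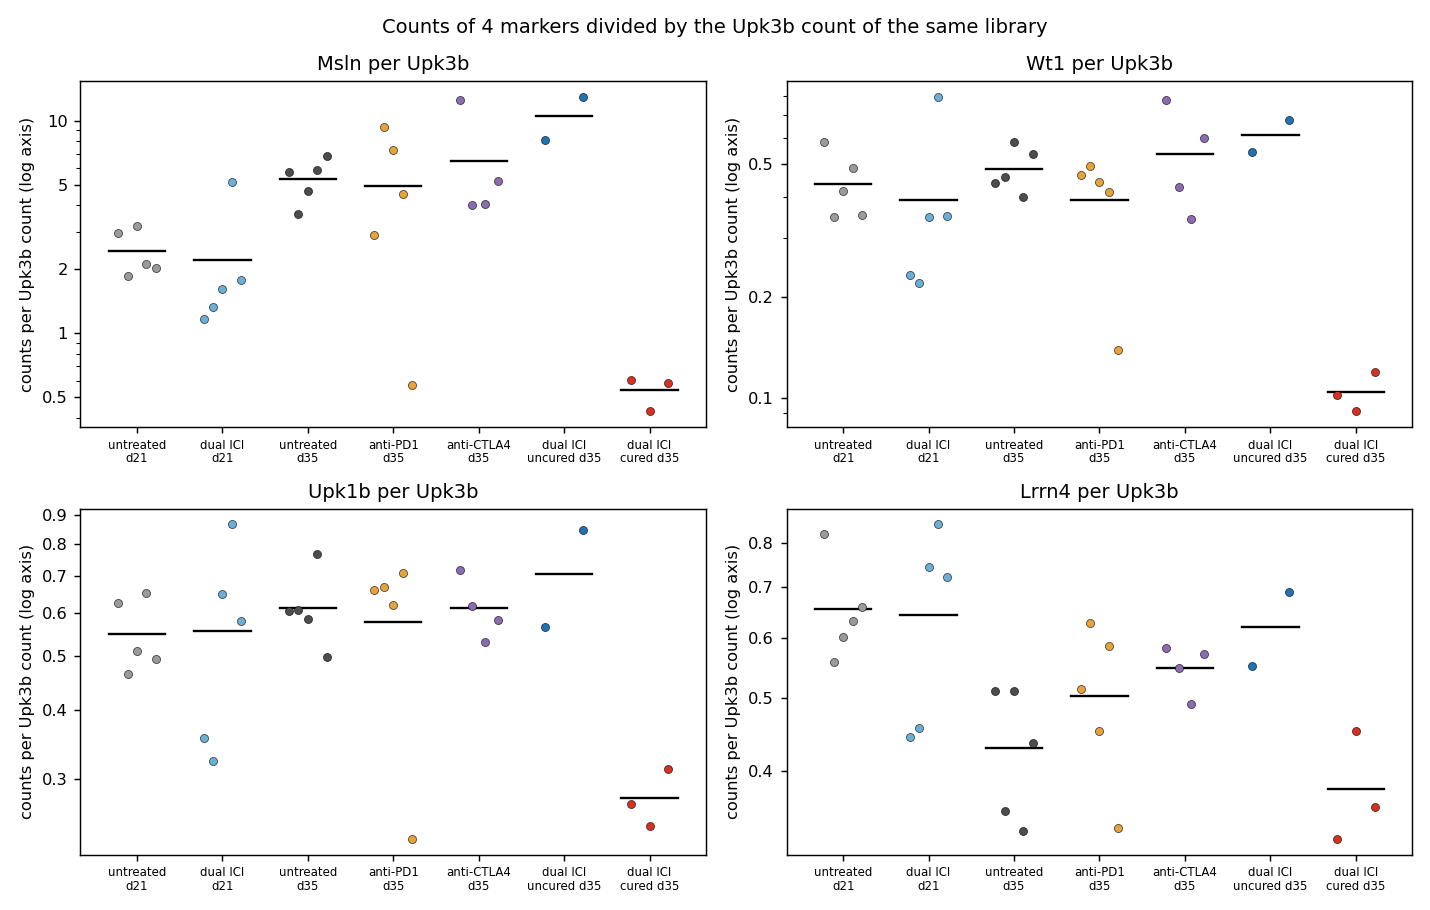
Counts of Msln, Wt1, Upk1b and Lrrn4 divided by the Upk3b count of the same library, on a log axis, by group, with 1 point per mouse and a bar at the group mean. Msln per Upk3b lay between 0.431 and 0.602 in the 3 cured mice and at 0.574 in anti-PD1 replicate 5, and reached 13 in an uncured mouse. In uncured mice Upk3b had its lowest group mean, 21.2 CPM, and Msln averaged 210 CPM beside 250 CPM in untreated mice at day 35.

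The other genes of the mesothelium divided in the same comparison. Of the 12 further mesothelial genes listed, 11 passed the filter on low counts, and in cured against untreated mice 6 fell and 1 rose, where 44.7% of all genes changed and 26.7% fell, with a median of -0.82 beside -0.05 over all genes. Anxa8, an annexin, fell by 4.47 (SE 0.51, adjusted p = 0.000235, edgeR). Gata6, a transcription factor, fell by 2.24 (SE 0.34, adjusted p = 0.00089), and Dmkn, a secreted protein also made in stratified epithelium, fell by 2.49 (SE 0.47, adjusted p = 0.00278, both edgeR). Gpm6a, a membrane glycoprotein, was the gene that rose, from 12.9 ± 3.42 CPM (n = 5) to 27 ± 12.8 (n = 3), by 1.07 (SE 0.32, adjusted p = 0.022, edgeR), and is named here because it was the single one to do so. The 3 cured libraries held 13 to 38.2 CPM of it and the untreated ones 9.46 to 18.4, so the ranges overlapped. The fitted values in this comparison are on TMM scaling, and plain totals put the median of all genes 0.585 lower. The gene that did not pass the filter was Calb2, which encodes calretinin, with at most 4 counts in any library.

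In uncured against cured mice 6 of these 11 genes were higher and 2 lower in uncured mice, where 70% of all genes changed, again with Anxa8 (4.60, SE 0.35), Gata6 (2.01, SE 0.19) and Dmkn (1.93, SE 0.29) at the smallest adjusted p, which were 6.53e-06, 2.45e-05 and 0.000407 (edgeR). The pair that was lower comprised Gpm6a by -1.67 (SE 0.38, adjusted p = 0.00403) and Rspo1, a secreted Wnt agonist, by -0.92 (SE 0.33, adjusted p = 0.0329, edgeR), named after their values were seen. In uncured against untreated mice and in dual ICI against untreated mice at day 21 none of the 11 changed, where 0% and 0.574% of all genes did. Between the days in untreated mice 1 of the 11 changed, where 10.8% of all genes did. It was Gpm6a, which fell by 1.36 to day 35 (SE 0.28, adjusted p = 0.0158, edgeR).

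**Figure D4:**
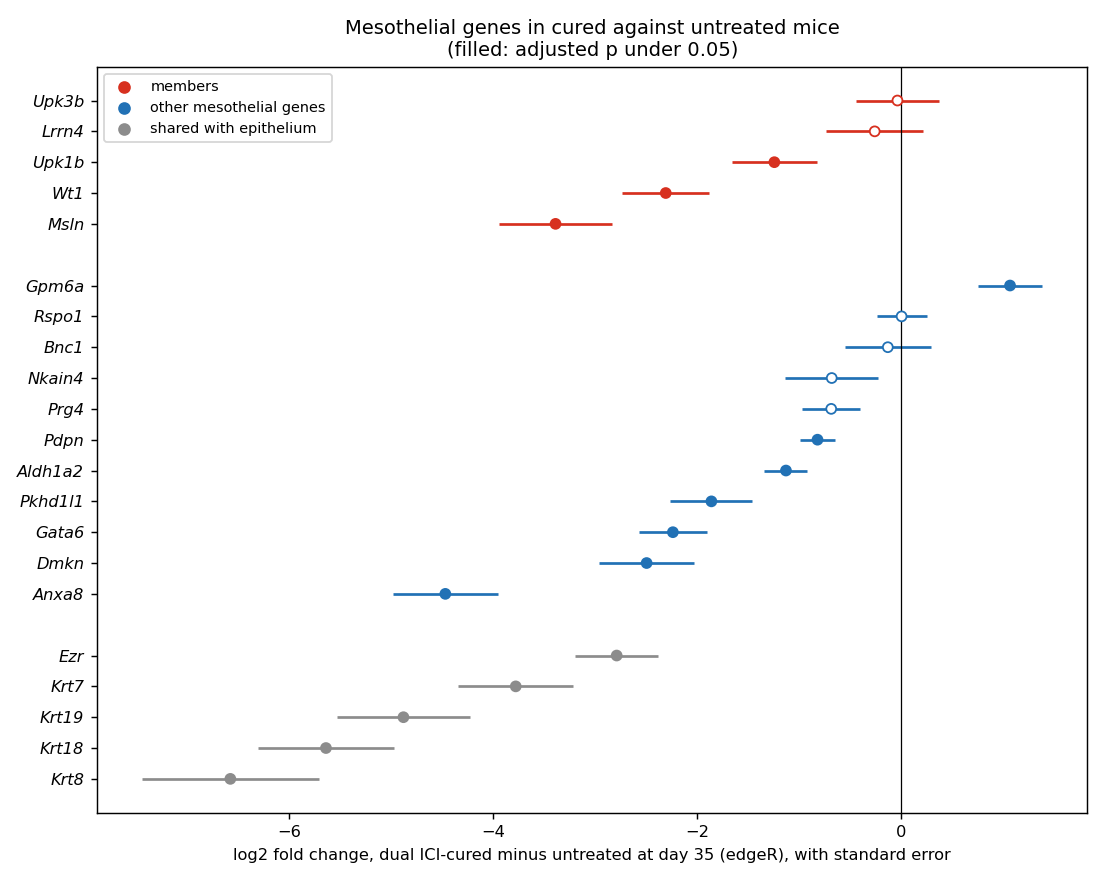
Log2 fold changes of the 5 markers, 11 other mesothelial genes and 5 mesothelial genes shared with epithelium in dual ICI-cured against untreated mice at day 35, with the edgeR standard error as bars and filled points where the adjusted p was under 0.05. Upk3b (-0.03), Rspo1 (0.01) and Bnc1 (-0.13) lay near 0, Gpm6a at 1.07, and Anxa8 and the genes shared with epithelium at -2.79 or below.

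The 5 mesothelial genes that epithelium also makes, Krt7, Krt8, Krt18, Krt19 and Ezr, all fell in cured mice relative to untreated mice, where 26.7% of all genes fell, with a median of -4.88. Krt18 fell by 5.64 (SE 0.66, adjusted p = 0.000259), Krt8 fell by 6.58 (SE 0.87, adjusted p = 0.000447) and Krt19 fell by 4.88 (SE 0.65, adjusted p = 0.00049, all edgeR). These are keratins of simple epithelium, the main filaments of glandular cells. The gastric epithelium genes moved with them: the summed level of 10 such genes was 6.44 to 13.9 CPM in cured mice and 257 to 917 CPM in untreated mice at day 35, with Gkn1, Gkn2, Tff1 and Muc5ac at 0 in every cured library. Their part in the Msln and Wt1 results was not tested. With the skeletal muscle genes left out, Msln differed by -3.39 and Wt1 by -2.31 between cured and untreated mice, as with them. That setting hardly changes the scaling, since the median of all genes was -0.0545 without these genes and -0.0548 with them. It therefore cannot show whether the muscle content of the libraries bears on Msln and Wt1, which was not tested.

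Relatives of the markers were read for comparison. Of 12 relatives, 10 passed the filter in cured against untreated mice, of which 3 rose and 5 fell, where 44.7% of all genes changed and 26.7% fell. Among the membrane mucins, to which Muc16 belongs, Muc1 fell by 5.08 (SE 0.48) and Muc4 fell by 6.06 (SE 0.59), each with an adjusted p of 0.000147 (edgeR). Lrrn2, of the same family as Lrrn4, fell by 2.18 (SE 0.25) and Upk1a, a bladder uroplakin, fell by 1.16 (SE 0.31). The genes that rose were Otoa, which encodes otoancorin of the mesothelin family, by 3.31 (SE 0.41, adjusted p = 0.000333) from 0.158 ± 0.0756 to 1.52 ± 0.311 CPM and thus at low counts, Lrrn4cl by 0.99 (SE 0.13, adjusted p = 0.000403) and Lrrn1 by 0.86 (SE 0.31, adjusted p = 0.046, all edgeR). Apart from Muc1, Muc4 and Upk3bl these were named after their values were seen. Upk3bl, a relative of Upk3b by name, was at 12.7 ± 6.02 CPM in untreated mice (n = 5) and at 2 counts or fewer in every cured library, unlike Upk3b itself. The bladder list (Upk1a, Upk2, Upk3a, Krt5 and Krt20) summed to 1.07 to 3 CPM in cured mice, of which Upk1a held 0.565 ± 0.0654 CPM (n = 3). Upk3b alone was at 15.9 to 66 CPM in the same libraries. In untreated mice at day 35 the list summed to 29.8 to 153 CPM, with Upk3b at 25.6 to 60.3 CPM. In uncured mice the list summed to 117 to 131 CPM, with Upk3b at 15.7 and 26.6 CPM. By the fitted values Upk1a and Upk2 were only 2.23-fold and 2.59-fold higher in untreated than in cured mice. In uncured mice they were 2.46-fold and 1.78-fold higher than in cured mice. The larger sums therefore came mostly from the rest of the list, which holds the keratins Krt5 and Krt20.

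Of 12 genes used as marks of the change from mesothelial to mesenchymal form, 1 rose (Zeb1, by 0.82, SE 0.24) and 4 fell in cured against untreated mice, where 44.7% of all genes changed and 26.7% fell, with a median of -0.33 beside -0.05 over all genes. Snai1, a repressor of epithelial genes, fell by 1.21 (SE 0.21, adjusted p = 0.00208), Tgfb1, a cytokine that can drive this change, fell by 0.81 (SE 0.17, adjusted p = 0.0042) and Tagln, an actin-binding protein, fell by 0.78 (SE 0.16, adjusted p = 0.00408, all edgeR). Zeb1, a repressor of epithelial genes as well, was named after its value was seen. In uncured against untreated mice none of the 12 changed, where 0% of all genes did (edgeR).

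The genes most like each marker were found by Pearson's r of log2 CPM over the 29 libraries among 16700 genes, as a description of libraries that share composition and depth. For Msln these were Tmem98 (r = 0.99), Zbtb7c (0.97) and Hgfac (0.97). Epcam reached 0.93 with Msln, whereas Upk3b reached 0.20 and Lrrn4 0.35. Without the 3 cured libraries the r of Msln was 0.83 with Epcam, 0.05 with Upk3b and 0.10 with Lrrn4 over 26 libraries. For Upk3b the closest genes were Rspo1 (0.92), Ccdc64 (0.90) and Pcnxl2 (0.90), with Lrrn4 the next marker at 0.89. Lrrn4 was closest to Esyt3 (0.93), Bnc1 (0.92), a zinc finger factor of mesothelium, and Crb2 (0.90), a polarity protein.

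Upk1b was closest to Pkhd1l1 (0.94), Crb2 (0.93) and Tmem151a (0.92), with Wt1 at 0.91. Wt1 was closest to Cdh3 (0.95), which encodes P-cadherin, Efna5 (0.93) and Lamc3 (0.92), and it reached 0.81 with Epcam, which became 0.47 without the cured libraries. Its r with Upk3b was 0.57 over all libraries and 0.67 without the cured ones. The markers thus ran from Upk3b and Lrrn4, whose r with Epcam was 0.08 and 0.32, through Upk1b at 0.59 and Wt1 at 0.81 to Msln. Without the cured libraries the r with Epcam was -0.19 for Upk3b, 0.01 for Lrrn4 and 0.28 for Upk1b over 26 libraries.

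**Figure D5:**
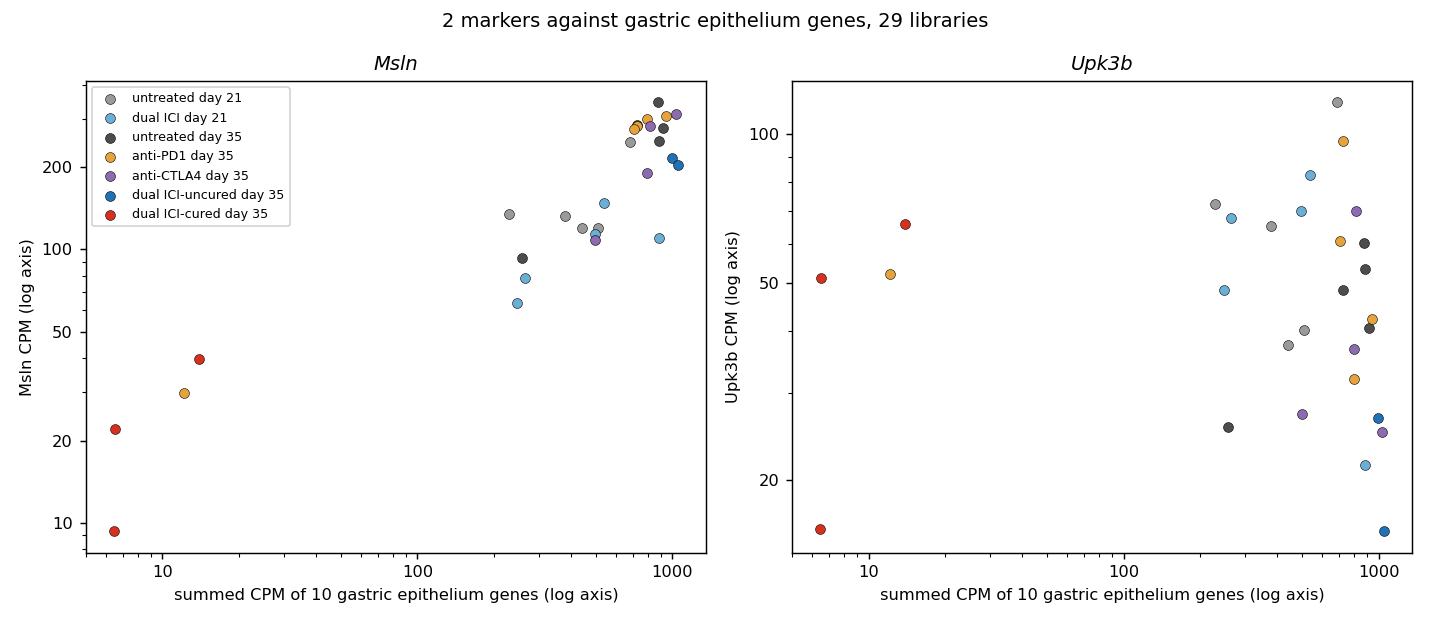
Msln (left) and Upk3b (right) in CPM against the summed CPM of 10 gastric epithelium genes, both on log axes, with 1 point per library coloured by group. Cured libraries and anti-PD1 replicate 5 lay at 6.44 to 13.9 CPM of gastric genes, where Msln was 9.32 to 39.7 CPM and Upk3b 15.9 to 66 CPM. The uncured libraries, with 998 to 1053 CPM of gastric genes, had 26.6 and 15.7 CPM of Upk3b, which overlapped untreated mice at day 35 (lowest 25.6 CPM). Epcam alone made up 485 to 490 CPM of the sum in uncured mice. The median difference of the 9 gastric genes tested was -0.61 in uncured against untreated mice, so the sum does not describe each listed gene.

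Set per Epcam count, Msln was 7.34 to 28 in cured mice and 0.281 to 7.1 in the other 26 libraries, of which anti-PD1 replicate 5 was the highest. The remaining Msln of the cured mice, at 191 to 771 counts per library, was therefore present beside 7 to 105 counts of Epcam. Upk3b per Epcam was 12.2 to 65 in cured mice, 12.4 in anti-PD1 replicate 5 and 0.0324 to 0.0543 in uncured mice.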

How the data were processed

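RNA-seq of peritoneal tissue was done on 29 mice. The authors deposited raw read counts per gene symbol, with no normalization. The study's methods name STAR and HTSeq, whereas the submitters' processing notes name STAR 2.7.0f and featureCounts 1.6.4 on mm10, and the annotation and strand setting are not given in the sources used here. Each replicate was a separate mouse. Library totals were 25989217 to 31219650 counts and no 2 libraries agreed within sampling noise (the closest pair had a mean chi-square of 13.5 per gene).

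The count test was edgeR 4.0.16 in R 4.3.3 (filterByExpr, TMM, quasi-likelihood F-test, Benjamini-Hochberg adjustment over all genes tested, threshold 0.05), fitted on the libraries of each comparison, and the interaction on the 4 groups of untreated and dual ICI mice by day. Differences are log2 fold changes. CPM used TMM-scaled totals and RPKM the union of exons in GENCODE vM21, which held 23376 of the 24421 symbols (95.7%). Alternatives were DESeq2 1.42.0, RLE scaling, no low-count filter, skeletal muscle genes left out, all 29 libraries in 1 fit, the replicate number as a block, each library left out in turn (84 fits) and, added after seeing the data, plain totals. The fits were tested on simulated data. Summaries and plots used Python 3.11.15, numpy 2.4.6, pandas 2.3.3, scipy 1.17.1 and matplotlib 3.10.9.

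The markers and gene lists were chosen with earlier results of these data known. Named were all markers, the 3 genes most like each marker by Pearson's r of log2 CPM (prior count 2), and at most the 3 genes per list and comparison with the smallest adjusted p or, with none called, the 2 most abundant. Others are marked as chosen after their values were seen. The values of 1 further listed gene are not reported here.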

Additional observations from a re-analysis of the deposited data

Results flagged for a closer look

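Of 60 sets of 4 or more libraries, made up of each marker and each ratio within each group, 11 had a library that stood apart by Dixon's criterion. Chance gives about 1 in 20 for a single set. The ratios are built from the marker counts and share Upk3b or Epcam, so the sets are not independent and the 11 cannot be weighed against that rate. In untreated mice at day 21, replicate 4 was the highest library for Msln with 247 CPM (the others at 119.7 to 135), for Upk1b with 75.6 CPM (19.2 to 33.6) and for Wt1 with 56.6 CPM (15.5 to 25.2). Under anti-PD1, replicate 5 was the lowest for Msln with 29.9 CPM (the others at 275 to 309), for Wt1 per Upk3b with 0.139 (0.414 to 0.494) and for Upk1b per Upk3b with 0.234 (0.619 to 0.708). The same library was the highest for Msln per Epcam with 7.1 (the others at 0.628 to 0.815) and for Upk3b per Epcam with 12.4 (0.0837 to 0.275). With dual ICI at day 21, replicate 4 was the highest for Msln per Upk3b with 5.14 (1.16 to 1.78) and for Wt1 per Upk3b with 0.796 (0.221 to 0.35). Under anti-CTLA4, replicate 1 was the highest for Msln per Upk3b with 12.5 (4 to 5.18).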

How the results depend on the processing

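Of 375 marker values under settings other than a left-out library, 359 kept their direction and their side of the threshold, 10 newly passed, 1 no longer passed and 5 changed sign. On plain totals, a scaling chosen after seeing the data, Lrrn4 in uncured against cured mice became 0.37, Wt1 under anti-PD1 against untreated -0.0044 and Upk3b under anti-CTLA4 against cured 0.48. Plain totals shifted the median of all genes by -0.59 in cured against untreated mice, 0.78 in uncured, 0.55 in anti-PD1 and 0.63 in anti-CTLA4 against cured, and by at most 0.20 in size in the other comparisons. The share of higher genes among those called went with it from 40.3% to 13.8%, 52.7% to 81.4%, 86.6% to 95.2% and 53.8% to 85.1%, and from 82% to 93.3% for dual ICI at day 21. The mean levels in uncured mice also moved by more than their small SD. On plain totals they became 255 CPM for Msln, 17.2 for Upk1b and 15.4 for Lrrn4. On plain totals with muscle genes left out they became 268 for Msln, 18.1 for Upk1b, 16.3 for Lrrn4 and 16.1 for Wt1. Unlike the fits without muscle genes, these levels carried no TMM scaling, so the moves are not those of leaving muscle genes out alone.

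The number of genes called depended on the test. DESeq2 called 502 for dual ICI at day 21 (edgeR 89), 17 for uncured and 46 for all dual ICI against untreated at day 35 (edgeR 0 for both), 5920 for anti-PD1 against cured (2968), 3168 genes and 1 marker for untreated day 35 against day 21 (1687 and 0) and 20 for the interaction (0). Plain totals called 15 for dual ICI at day 21 and 6355 for anti-PD1 against cured, for which all 29 libraries in 1 fit called 7146.

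The replicate numbers did not pair the mice in any comparison, with correlations of same-numbered libraries from -0.65 to 0.64 and of -0.147 and -0.082 for uncured and untreated mice. With the replicate number as a block, 209 genes were called for dual ICI at day 21, 2 for uncured and 3902 for cured against untreated, and 9840 for anti-PD1 against cured. Upk1b in cured against untreated mice no longer passed (-1.28, adjusted p = 0.0774, edgeR), whereas it passed under anti-PD1 and anti-CTLA4 against cured. Wt1 under anti-PD1 against untreated became -0.13 and Upk3b under anti-CTLA4 against cured 0.14. Uncured and cured mice share no number.

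Without 1 library at a time, in 84 fits, Msln and Wt1 in cured against untreated mice ranged from -3.97 to -3 and from -2.72 to -1.94 and passed throughout. The genes called ranged from 6 to 119 for dual ICI at day 21, from 4491 to 9388 for cured against untreated (2 to 3 markers), from 9668 to 10883 for uncured against cured (1 to 4 markers, the 4 without cured replicate 4), from 8149 to 10477 for anti-CTLA4 against cured (2 to 3 markers, the 3 without cured replicate 2) and from 654 (without untreated day 21 replicate 5) to 4915 (without untreated day 35 replicate 2) for untreated day 35 against day 21 (0 to 2 markers). For anti-PD1 against cured they ranged from 0 to 10746 (0 to 3 markers), the highest without anti-PD1 replicate 5. Values that changed sign were, for dual ICI at day 21, Upk3b from -0.35 to 0.10, Upk1b from -0.51 to 0.14 and Lrrn4 from -0.47 to 0.062, and, for cured against untreated, Upk3b from -0.42 to 0.37 and Lrrn4 from -0.57 to 0.16. They were Upk1b from -0.14 to 0.65 for uncured against cured, Msln from -0.27 to 0.22, Upk1b from -0.14 to 0.45 and Wt1 from -0.41 to 0.24 for anti-PD1 against untreated, and Msln from -0.37 to 0.060 and Lrrn4 from -0.28 to 0.25 for anti-CTLA4 against untreated. They were also Upk3b from -0.040 to 0.76 for anti-PD1 and from -0.58 to 0.24 for anti-CTLA4 against cured, Lrrn4 from -0.077 to 0.64 for anti-CTLA4 against cured, and Upk1b from -0.57 to 0.014 and Wt1 from -0.54 to 0.0032 for untreated day 35 against day 21. The causes were not tested.

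The lowest marker count was 39, for Wt1 in cured replicate 4, and the smallest groups held 2 uncured and 3 cured mice.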
